A study of Mus musculus with 6 samples.

Results

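The 7 genes described here carry thyroid hormone signalling in and around a cell: the thyrotropin receptor Tshr, the deiodinases Dio1, Dio2 and Dio3, the nuclear hormone receptors Thra and Thrb, and the amino acid and thyroid hormone transporter Slc16a10 (MCT10). They were taken from the array by gene symbol, and all 7 were on it, with 64 of its 188590 probe sets and 7 of its 15792 genes. A probe set is a small group of probes that covers part of an exon or transcript, and a gene value is the mean log2 value of the probe sets that carry its symbol alone. Tshr and Dio2 were chosen by their KO against WT differences on these same arrays, where earlier results had Tshr higher and Dio2 lower in KO. The knockout against wild-type differences of the members are therefore given as a description, with no test, and the other members were added for their roles.

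The samples were testes of male mice, 3 arrays from WT and 3 from Ttll5/Stamp KO animals, each array hybridised with biotin-labelled target made from Trizol-extracted total RNA. Both groups shared a mixed background drawn from FVB/N, 129/SvEv and C57BL/6, and littermates were matched for age and sex; the sources used here do not give the ages. Ttll5 (also named STAMP) adds amino acids, mostly glutamate, to tubulin; nor do they say which part of the gene was deleted, or whether an array holds 1 animal or a pool. The study asked which testis transcripts differ when Ttll5 is missing.

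Thyrotropin, the pituitary hormone TSH, acts on its receptor in the thyroid, which signals through Gs and cAMP and drives hormone synthesis. The gland releases mostly thyroxine, a prohormone that enters cells through transporters. Type 2 deiodinase turns it into the active hormone triiodothyronine, type 3 inactivates both, and type 1 can do either. Triiodothyronine binds the receptors encoded by Thra and Thrb, which sit on DNA with retinoid X receptors. In the testis the hormone is known for ending the proliferation of immature Sertoli cells.

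The 6 arrays had median probe set values of 6.72 to 6.77 and lower quartiles of 4.59 to 4.67 (log2), and the lower quartile is used below as a mark for dim signal. Ttll5 was lower in all 3 KO arrays (9.53 ± 0.043) than in all 3 WT arrays (11.15 ± 0.015; log2, mean ± SD, n = 3 each; limma adjusted p = 4.3e-05), as the labels require. The germ cell gene Prm1 (12.30) and the Leydig cell gene Star (9.40) were high in WT, as the tissue label requires. Every difference below is the KO mean less the WT mean, in log2 units.

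The regulatory sequence shown first is that of the deiodinases, since Dio2 and Dio3 lie on the same chromosome and only Dio2 stood apart between the groups. RefSeq promoters of build GRCm38.p6 were at hand for 5 of the 7 members, 6 promoters in all; those of Tshr and Thra are named only. The 250 bases before the annotated start of each deiodinase gene are printed 5′ to 3′ on the gene's strand, with capitals for the letters TGACGTCA (the full cAMP response element, which reads the same on both strands) and TATAAA, which are the letters of the TATA box. Dio2 is on the minus strand at chr12:90739039-90739288, Dio3 on the plus strand at chr12:110278980-110279229, and Dio1 on the minus strand at chr4:107307169-107307418.
Dio2: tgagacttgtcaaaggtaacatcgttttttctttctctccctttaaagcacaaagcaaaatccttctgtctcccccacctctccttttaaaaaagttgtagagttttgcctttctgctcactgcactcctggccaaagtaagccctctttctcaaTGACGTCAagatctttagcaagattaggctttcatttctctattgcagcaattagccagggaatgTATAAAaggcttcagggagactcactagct
Dio3: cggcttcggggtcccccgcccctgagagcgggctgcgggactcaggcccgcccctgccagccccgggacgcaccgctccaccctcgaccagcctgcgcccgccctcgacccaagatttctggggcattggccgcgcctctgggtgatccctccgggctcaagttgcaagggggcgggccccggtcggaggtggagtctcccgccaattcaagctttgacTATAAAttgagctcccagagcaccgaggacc
Dio1: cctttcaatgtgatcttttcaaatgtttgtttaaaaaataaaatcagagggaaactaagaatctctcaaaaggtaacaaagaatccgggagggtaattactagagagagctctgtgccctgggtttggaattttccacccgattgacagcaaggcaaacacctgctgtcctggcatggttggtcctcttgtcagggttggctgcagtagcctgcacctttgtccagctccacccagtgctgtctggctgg
Dio2 held TGACGTCA from positions -95 to -88 before its start, and TATAAA from -30 to -25. Of all 32851 promoter stretches of this length, 1.55% held TGACGTCA on either strand, and among the 6 of the members Dio2's was the 1 that did. Dio3 held TATAAA from -31 to -26, and this motif was found in 12.4% of all stretches and in 3 of the members', the third being the second promoter listed for Thrb. Dio1 held neither. AGGTCA, the core letters of thyroid hormone response elements, was found in 14.0% of all stretches and in 1 of the members', the first of the promoters listed for Thrb, at -184 to -179. These matches describe letters in a window and say nothing of binding in these testes.

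Tshr stood apart most. This G protein-coupled receptor is the one through which TSH acts on the thyroid. The WT arrays read 3.88, 3.72 and 3.77 for this gene and the KO arrays 5.71, 5.64 and 5.83 (log2 gene value), with means of 3.79 ± 0.079 and 5.73 ± 0.099 (SD, n = 3 each). Every KO array lay above every WT array, and the gap between the groups was many times the spread within either. The difference was 1.94. All 3 WT values lay below the lower quartile of every array and all 3 KO values above it, so the WT level is dim signal and no linear fold is given. Leaving out dim probe sets left 1 of the 15, the probe set with the largest difference, at 3.81. That filter uses the mean over all 6 arrays, so KO signal kept this probe set and the value is a description only. Tshr was the 1 of the 7 members past the gene-level threshold (limma, Benjamini-Hochberg adjusted p under 0.05), which 0.0697% of all genes passed; since this contrast chose the gene, nothing is read from that count.

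**Figure D1:**
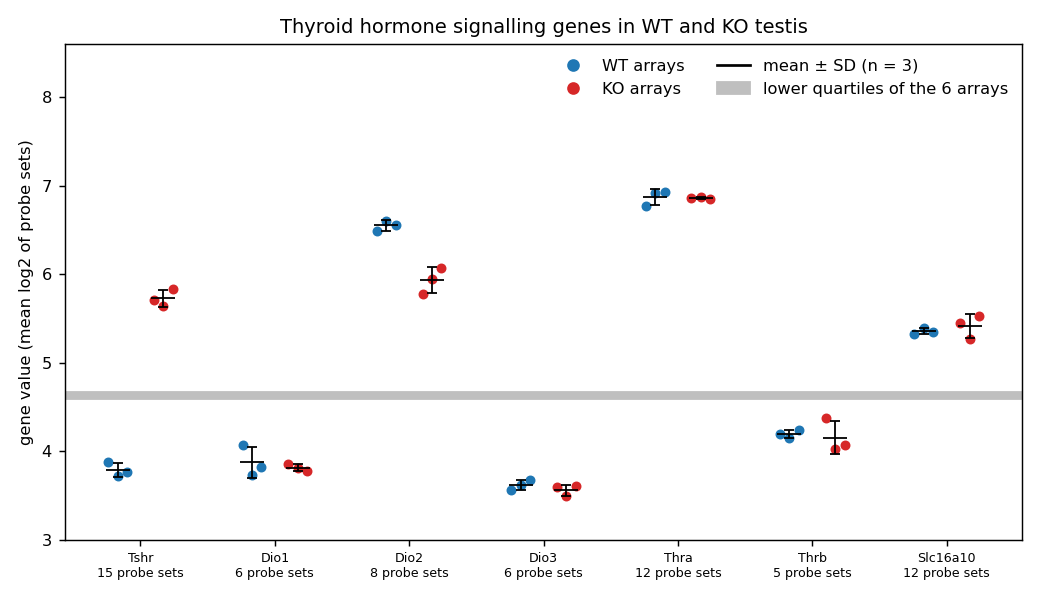
Gene values (mean log2 of the probe sets) of the 7 members on each of the 6 arrays, with mean ± SD (n = 3 per group) and a grey band for the range of the arrays' lower quartiles. Tshr is at 3.72 to 3.88 in WT and 5.64 to 5.83 in KO, Dio2 at 6.49 to 6.60 and 5.78 to 6.07, and the groups of the other 5 genes overlap; values of different genes rest on different probes and are not compared.

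Most probe sets of Tshr differed in the same way. Of its 15 probe sets, 11 had all 3 KO arrays above all 3 WT arrays, where 4.97% of all probe sets did, and 9 passed the probe set threshold, all higher, where 0.0201% of all probe sets passed in that direction. Their use of the same contrast makes both counts a description. The 11 differed by 1.36 to 3.81 with a median of 2.44. Their WT means ran from 2.99 to 4.53, all below the arrays' lower quartiles, and their KO means from 4.35 to 8.06.

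The largest difference was that of probe set 5454201, with 4.80, 4.22 and 3.71 in WT and 8.03, 8.04 and 8.10 in KO. Its KO arrays agreed to within 0.039 (SD), while its WT arrays, near the dim end, spread by 0.545. Probe set 5201129 read 4.04, 4.03 and 3.75 in WT and 7.38, 6.92 and 6.90 in KO, a difference of 3.13. Probe set 5418436 read 3.22, 3.29 and 3.21 against 6.54, 6.16 and 5.83, a difference of 2.94. In all 3 of these the groups were far apart. At the lower end of the 11, probe set 5483671 read 3.05, 3.01 and 2.90 in WT and 4.81, 4.26 and 3.98 in KO, so that 1 KO array exceeded its lower quartile.

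The other 4 Tshr probe sets overlapped between the groups. Probe set 5540707 was the 1 of the 15 with a WT mean above the lower quartiles, and it hardly differed, with 5.20, 5.52 and 5.37 in WT and 5.34, 5.78 and 5.59 in KO (a difference of 0.21). Probe sets 4763608 and 4819931 differed by 0.19 and -0.07 and were below the lower quartile on every array. Probe set 5601025 was high on a single array: it read 2.90, 3.17 and 2.89 in WT, 2.96 and 3.19 in KO 1 and KO 2, and 5.83 in KO 3. The sources used here do not give the order of the probe sets along the gene, so neither group of probe sets can be placed in the transcript.

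**Figure D2:**
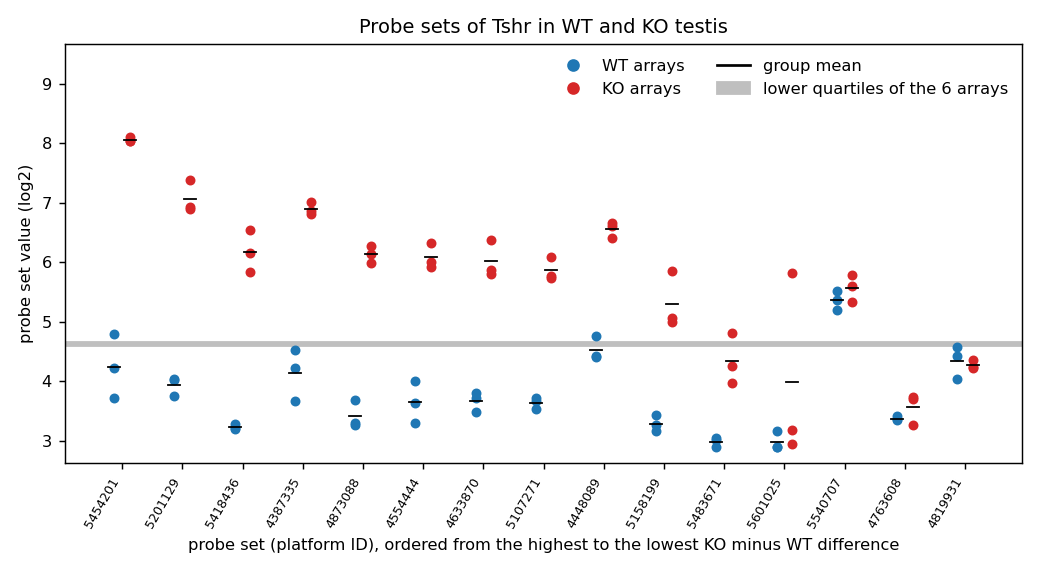
Values (log2) of the 15 Tshr probe sets on each array, ordered from the highest to the lowest KO minus WT difference, with bars for group means and a grey band for the arrays' lower quartiles. In 11 probe sets the KO arrays lie above the WT arrays, in 1 a single KO array is at 5.83, and in 3 the groups lie within 0.21 of each other.

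Among the deiodinases, Dio2 was lower in KO and the others overlapped. Dio2 encodes the enzyme that makes triiodothyronine inside cells and is a selenoprotein of the endoplasmic reticulum. Its gene value was 6.49, 6.60 and 6.56 in WT and 5.78, 5.95 and 6.07 in KO, means of 6.55 ± 0.058 and 5.93 ± 0.144 (SD, n = 3 each). All 3 KO arrays lay below all 3 WT arrays, with a difference of -0.62, or 1.53-fold. The gene did not reach the gene-level threshold (limma adjusted p = 0.090), but did in 1 of 14 alternatives, that without dim probe sets, which left 4 of its 8 (a difference of -0.75, limma adjusted p = 0.036); as this contrast chose the gene, nothing is read from either. Unlike Tshr, it was above the lower quartiles in both groups. In whole testis, fewer cells of a type and less RNA per cell cannot be told apart.

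Probe set by probe set, 7 of the 8 of Dio2 had all KO arrays below all WT arrays, where 5.27% of all probe sets did, and 0 passed the probe set threshold, which 0.018% of all probe sets passed in that direction. Since the gene was chosen for this difference, these counts too are a description. The 7 differed by -0.50 to -1.07 with a median of -0.75. The brightest, 4618997, read 9.05, 9.11 and 8.84 in WT and 7.78, 8.27 and 8.30 in KO. Probe set 4831505 read 7.85, 8.36 and 8.59 against 7.33, 7.60 and 7.60, and probe set 4621504 read 7.51, 7.43 and 7.44 against 6.97, 6.27 and 6.88. In these bright probe sets the groups lay apart by less than in the Tshr ones, and the KO arrays spread by 0.156 to 0.379 (SD).

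The widest Dio2 difference came from a dimmer probe set, 5600686, with 4.98, 5.75 and 5.45 in WT and 4.10, 4.13 and 4.74 in KO; in KO, 1 of the 3 arrays exceeded its lower quartile. Probe set 5536830 went the other way, with 5.02, 4.73 and 4.76 in WT and 4.97, 5.08 and 5.40 in KO, overlapping groups and a difference of 0.31. The promoter with TGACGTCA printed above belongs to this gene. No array result here bears on whether that element is used.

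**Figure D3:**
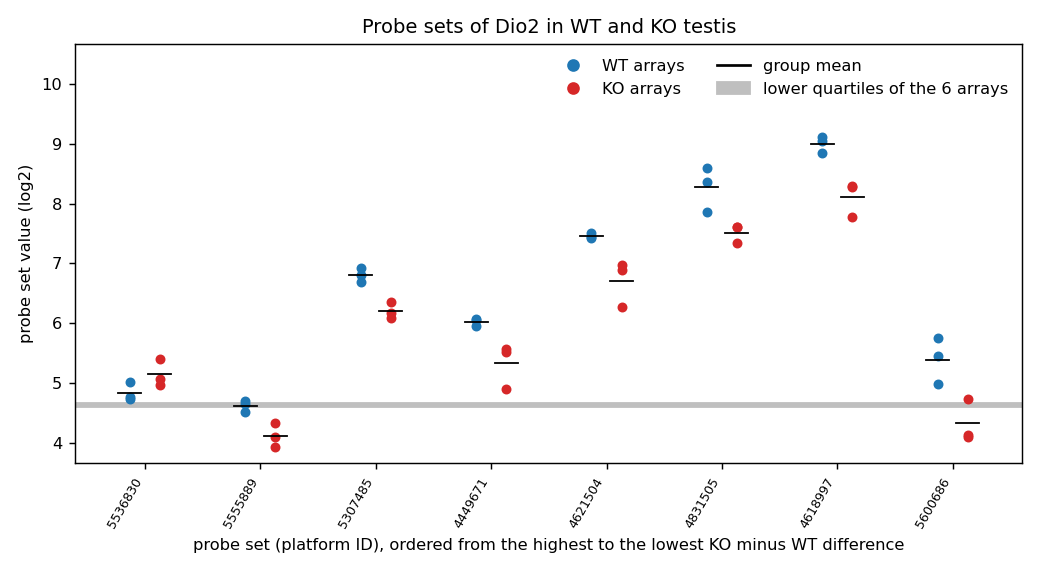
Values (log2) of the 8 Dio2 probe sets on each array, ordered from the highest to the lowest KO minus WT difference, with bars for group means and a grey band for the arrays' lower quartiles. In 7 probe sets all KO arrays lie below all WT arrays, with differences of means from -0.50 to -1.07, and in 5536830 the groups overlap.

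Dio3, which inactivates thyroid hormone and shares chromosome 12 with Dio2 and Tshr, read 3.56, 3.62 and 3.68 in WT and 3.59, 3.49 and 3.60 in KO, a difference of -0.06 with overlapping groups. Of its 6 probe sets, 5 were below the lower quartiles in both groups. The 1 above them, 4812037, read 4.89, 5.03 and 4.87 in WT and 5.26, 5.17 and 5.50 in KO, 0.38 higher with groups apart, while the dim 4859315 was lower by 0.33 with groups apart. Dio1, an enzyme of liver and kidney above all, read 4.07, 3.74 and 3.82 in WT and 3.86, 3.81 and 3.78 in KO, a difference of -0.06 whose direction other settings turn. All 6 of its probe sets had overlapping groups, and its KO means were all below the lower quartiles. Of the deiodinases, then, Dio2 alone had a gene value above the lower quartiles.

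The groups overlapped for both nuclear receptors. Thra read 6.77, 6.91 and 6.93 in WT and 6.87, 6.88 and 6.85 in KO, a difference of -0.01 whose direction other settings turn. The 3 KO arrays lay within the WT range. Of its 12 probe sets, 10 were above the lower quartiles in both groups and 11 overlapped between them. The exception was 4852699, with 6.64, 6.96 and 7.32 in WT and 7.53, 7.42 and 7.57 in KO, a difference of 0.53. One more probe set carries the symbols of both Thra and its neighbour Nr1d1, a clock repressor, and is left out of the gene value; it read 8.68, 8.73 and 8.88 in WT and 8.70, 8.69 and 8.74 in KO. Thrb, the second receptor gene, read 4.19, 4.15 and 4.24 in WT and 4.37, 4.02 and 4.07 in KO, a difference of -0.04 that turns without KO 2 or KO 3. The KO arrays of Thrb lay on both sides of the WT range, and 3 of its 5 probe sets were below the lower quartiles in both groups.

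Slc16a10 encodes a transporter of aromatic amino acids that also passes thyroid hormones. It read 5.33, 5.39 and 5.35 in WT and 5.45, 5.27 and 5.52 in KO, a difference of 0.06 with overlapping groups. Of its 12 probe sets, 10 overlapped. Probe set 5092510 was its brightest, with 7.45, 7.58 and 7.72 in WT and 7.72, 7.85 and 8.0 in KO, 0.28 higher with groups that barely parted. The dim 4737528 was also higher, by 0.36. Taking Dio1, Dio3, Thra, Thrb and Slc16a10 as a whole, 5 of their 41 probe sets had groups that did not overlap, 4 higher and 1 lower, where 10.2% of all probe sets did, and their gene differences ran from -0.06 to 0.06.

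The rest of the pathway was read from 7 lists of 120 genes, of which 105 had a gene value. None of the 105 passed in limma over all 15792 genes, where 0.0697% passed, while 2 reached an unadjusted p under 0.05, with 1 in each direction; among all genes, 6.05% reached it. Values were higher in 54 and lower in 51, with a median difference of 0.00, the same as over all genes. The groups did not overlap in 7, 2 higher and 5 lower, where 11.2% of all genes did not overlap. Of the 21 pathway genes named below by the rule of smallest p, 15 had a difference that leaving out 1 array moved by over 1.5 times.

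Upstream of the receptor, 9 genes of the TSH axis had a median difference of -0.03, with 4 higher and 5 lower and 0 past the threshold. Tshb, the TSH beta subunit, read 3.45, 3.44 and 4.25 in WT and 3.18, 3.42 and 3.42 in KO (-0.37, SE 0.21), and all of these are below the lower quartiles; without WT 3 it differed by -0.10. Trh, the hypothalamic releasing hormone, differed by 0.40 (SE 0.22) with overlapping groups, but by 0.19 without KO 2 and 0.66 without KO 3, and Gpha2, a glycoprotein hormone alpha subunit, by -0.15 (SE 0.079). Fshr, the related receptor for follicle-stimulating hormone on Sertoli cells, was named after its value was seen; it differed by 0.15 (SE 0.098) with overlapping groups. Limma adjusted p-values of this list were 0.86 or more.

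Downstream, 17 genes of the Gs, cAMP and Gq route from the receptor had a median of 0.03, with 10 higher, 7 lower and 0 past the threshold. Creb1, which binds cAMP response elements, differed by -0.13 (SE 0.070) with KO arrays below WT arrays. Prkar2b, a regulatory subunit of protein kinase A, differed by 0.15 (SE 0.10; -0.10 with the median of its probe sets), and Gna13, a G protein alpha subunit, by 0.14 (SE 0.093), both with overlapping groups. The lowest limma adjusted p among the 17 was 0.87.

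Of 13 genes that carry thyroid hormone across membranes, in blood or in the cytosol, 8 were higher and 5 lower with a median of 0.03. Slc7a8, the LAT2 amino acid exchanger that also takes up thyroid hormones, had the smallest p of the pathway. It differed by 0.27 (SE 0.089), from 8.63 ± 0.086 to 8.90 ± 0.129 (SD, n = 3 each), with all KO arrays above all WT arrays and a limma adjusted p of 0.71. Its partner chain Slc3a2 differed by 0.16 (SE 0.087) and the organic anion transporter Slco1a4 by 0.29 (SE 0.15), both with overlapping groups; without WT 3 the latter differed by 0.11 and without WT 2 by 0.44.

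The 13 genes listed as deiodinase support were mostly of selenoprotein synthesis or Dio2 turnover, with others such as Sult1a1 that belong to neither. Of their values 10 were lower and 3 higher, with a median of -0.03 and 0 past the threshold (limma adjusted p of 0.89 or more). Sepsecs, an enzyme of selenoprotein synthesis, differed by -0.13 (SE 0.081) with KO arrays below WT arrays. The sulfotransferase Sult1a1 differed by -0.14 (SE 0.12) and the ubiquitin-conjugating enzyme Ube2j1 by -0.10 (SE 0.098), both with overlapping groups.

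Partners of the hormone receptors numbered 15, with a median of 0.02, 10 higher, 5 lower and 0 past the threshold (limma adjusted p of 0.91 or more). Among the retinoid X receptors, Rxrb differed by -0.09 (SE 0.068) with KO arrays below WT arrays, and Rxra by 0.09 (SE 0.075) with overlapping groups. Ncoa1 (SRC-1), a steroid and thyroid receptor coactivator, differed by -0.10 (SE 0.088), with overlapping groups.

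The 28 genes listed as responsive to thyroid hormone, mostly known from liver, heart, brain and fat, had 14 higher and 14 lower values, a median of 0.00 and 0 past the threshold (limma adjusted p of 0.81 or more). Myh6, the cardiac myosin heavy chain that the hormone induces in heart, differed by -0.17 (SE 0.072) at levels below the lower quartiles, and was the list's 1 gene with an unadjusted p under 0.05. Scd1, a fatty acid desaturase, differed by 0.24 (SE 0.12) with overlapping groups. Cpt1a, which brings fatty acids into mitochondria, differed by 0.13 (SE 0.068), with all KO arrays above all WT arrays.

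**Figure D4:**
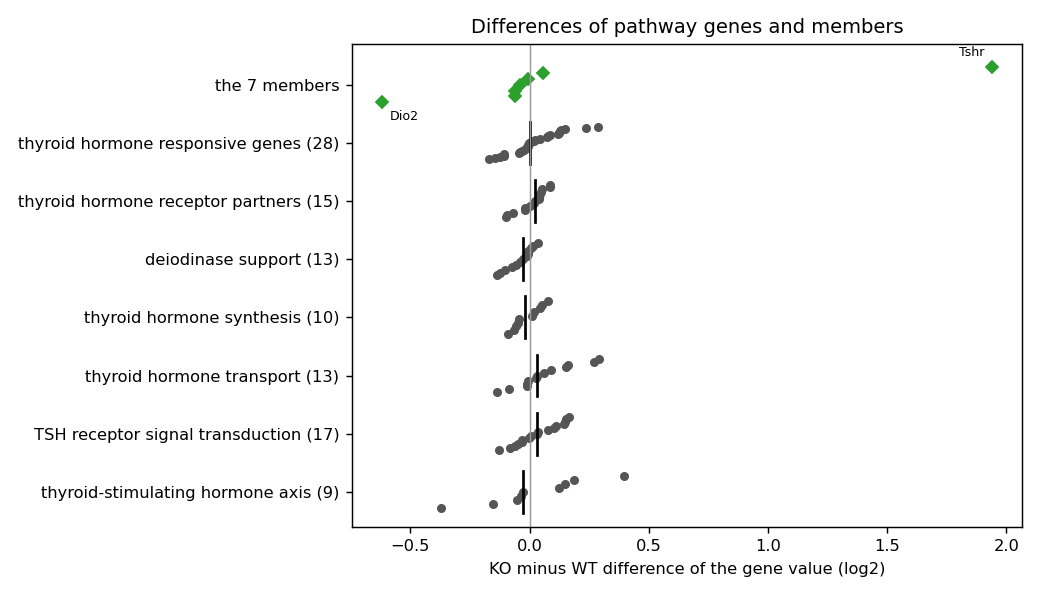
KO minus WT differences (log2) of the gene values in the 7 pathway lists (grey points, number of genes in brackets, black bar for the median) and of the 7 members (green diamonds). Pathway genes lie between -0.37 and 0.40, Dio2 is at -0.62 and Tshr at 1.94.

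Tshr was set beside markers of cells that are known for it or that fill the testis. Genes of thyroid hormone synthesis showed no direction: of 10, 5 were higher and 5 lower, with a median of -0.02, 0 past the threshold and limma adjusted p-values of 0.95 or more. The thyroid follicular cell marker Tg, the hormone's protein precursor, differed by 0.08 (SE 0.074), Duoxa2 by -0.09 (SE 0.099) and Pax8 by -0.06 (SE 0.093), all with overlapping groups. The median of probe sets turned Duoxa2 to 0.16 and Pax8 to 0.11, and Pax8 stood at 0.0083 without WT 1. The mean level of the 5 measured of 6 follicular cell markers ran from 4.96 to 5.15 in WT and from 4.99 to 5.17 in KO, and that of 6 adipocyte markers from 4.72 to 4.73 and from 4.62 to 4.77. The ranges of both lists overlapped between the groups, but 3 of the 6 adipocyte markers and 1 of the 5 follicular ones were below the lower quartiles.

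Leydig cell markers lay higher on the KO arrays, as Tshr did, with a median difference of 0.29. The mean level of the 8 measured of 9 ran from 9.19 to 9.49 in WT and from 9.63 to 9.75 in KO. All 8 had higher values in KO, where 48.9% of all genes did. An unadjusted limma p under 0.05 was found for 4 of them, against 6.05% of all genes, and 0 passed after adjustment. The 7 macrophage markers ran from 5.73 to 5.87 and from 5.96 to 5.98, with 4 higher and 3 lower in KO; 3 of the higher ones had an unadjusted p under 0.05. The 8 spermatid markers ran from 12.37 to 12.43 in WT and from 12.28 to 12.34 in KO, with 1 higher and 7 lower. Their median difference was -0.10, and Dio2 was lower too. Of the 8, 1 had an unadjusted limma p under 0.05. Of these 23 genes, the macrophage marker Cd163 was below the lower quartiles in both groups (4.47 in WT and 4.45 in KO), and Cd14, 1 of those 3, in WT alone (4.36 and 4.83). The part that these cell types have in the Tshr and Dio2 differences was not tested. Sertoli cell markers, 8 of 9 measured, had overlapping ranges of 7.33 to 7.43 in WT and 7.30 to 7.44 in KO. The ranges also overlapped for myoid, endothelial, spermatogonial, spermatocyte, epididymal and red blood cell markers. Of the 7 spermatocyte markers, 6 were lower and 1 higher, with a median of -0.11, much like the spermatid ones. Red blood cells had 1 measured marker of 4, and 3 of the 5 measured epididymal markers were below the lower quartiles, so little can be read from those lists.

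Tshr and Dio2 lie near each other on chromosome 12, which also carries Ttll5. Within 2 Mb of either, 4 other genes had a gene value, and in chromosomal order the 6 run Dio2, Cep128, Tshr, Gtf2a1, Ston2, Sel1l. Ston2, an endocytic adaptor, passed in limma (adjusted p = 0.013, where 0.0697% of all genes passed); it read 7.03, 7.22 and 7.17 in WT and 8.21, 7.94 and 8.03 in KO, a difference of 0.92 (SE 0.093). It did not pass without WT 1 (limma adjusted p = 0.059), WT 3 (0.080) or KO 3 (0.051). Gtf2a1, which encodes part of the basal factor TFIIA, differed by 0.80 (SE 0.10, limma adjusted p = 0.061) with KO arrays above WT arrays. Yet its 6 probe sets had a median difference of -0.05, and the widest difference among them was 5.15. Only 1 of the 6 had all KO arrays above all WT arrays. With the median of its probe sets, Gtf2a1 differed by 0.36 (Ston2 by 1.42). Cep128, a centriole protein gene that lies between Dio2 and Tshr, differed by 0.01 (SE 0.068) and Sel1l, of protein quality control in the endoplasmic reticulum, by -0.01 (SE 0.073), both with overlapping groups and a direction that other settings turn.

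Genes whose groups overlapped thus stood between Dio2 and Tshr and after Ston2. The 55 probe sets of the 4 neighbours held 5 past the probe set threshold, all higher and in Ston2 and Gtf2a1, where 0.0382% of all probe sets passed. Sequence linked to a knockout allele can stem from the embryonic stem cells used; for the genes of this stretch, it and the loss of Ttll5 cannot be told apart here.

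**Figure D5:**
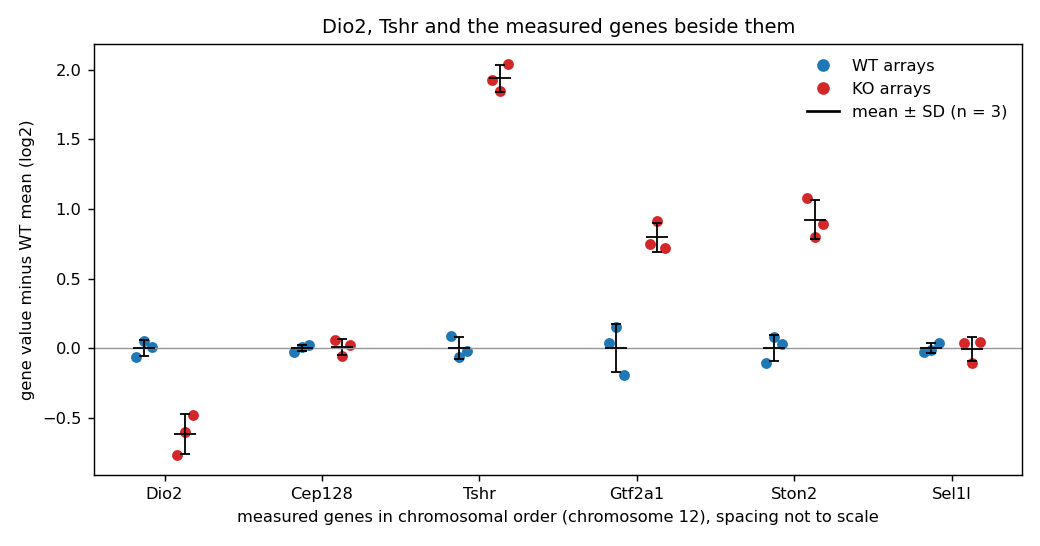
Gene values minus the gene's WT mean (log2) for Dio2, Tshr and the 4 measured genes within 2 Mb of either, in chromosomal order with spacing not to scale, each array as a point with mean ± SD (n = 3 per group). Dio2 is lower and Tshr, Gtf2a1 and Ston2 are higher in all KO arrays, while Cep128 and Sel1l overlap.

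Over the 6 arrays, likeness to Tshr and to Dio2 was ranked among 12999 genes with 3 or more probe sets. Clone-type symbols, such as those ending in Rik, were left out of the ranking. Most like Tshr were Prps1l1 (Pearson r = 0.994), Serpina3g (0.991), Scn10a (0.990) and Acadvl (0.979). Prps1l1, a testis phosphoribosyl pyrophosphate synthetase, and Serpina3g, a protease inhibitor, also lie on chromosome 12. The differences of these genes were 1.60, 5.11, 0.89 and 0.20. Most like Dio2 were Tmem115 (0.984), Fzd3 (0.984), Mrpl12 (0.983) and Sar1a (0.981), on chromosomes 9, 14, 11 and 10. Those genes differed by -0.58, -0.14, -0.24 and -0.14. With 6 arrays in 2 groups these values mostly follow the split between KO and WT, and they are a description of likeness over the same 6 arrays.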

How the data were processed

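The authors deposited 1 table of log2 probe set values for 6 arrays; RMA and Partek 6.5 are named per the submitters' processing notes, with no role or order, and the sources used here do not give the annotation or build. RMA makes array distributions alike, so a shift of most genes would not be visible. Values were used as deposited, with no pseudocount or filter. Of 188590 probe sets, 179163 had 1 platform symbol, 1322 several and 8105 none. RefSeq (GRCm38.p6) gave current names, promoters and gene order only. KO and WT were compared in limma 3.58.1 (R 4.3.3; lmFit and eBayes, two-sided, no covariates) over 15792 genes and over all probe sets, with Benjamini-Hochberg adjustment at 0.05; with 3 arrays against 3, an exact permutation test cannot go below 0.1. The series' design text calls the arrays biological replicates, and p-values cover the spread among them.

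Members and lists were chosen with earlier results of these data known. Named were all members, 3 genes per list and up to 4 further neighbours by smallest p, and 4 genes by correlation. Tested on simulated data, the gene test (15792 genes, KO against WT) found 80% of the genes given a shift of 0.5 and 100% at a shift of 1. It made 13 false calls. Many genes were shifted at once there, with independent noise, which makes the adjusted threshold easier to reach. In the real arrays 11 genes passed, so these shares can overstate what the test finds here. Alternatives were the median of probe sets, leaving out probe sets below the 40th percentile, array centring, quantile normalization, moderation, array weights, a replicate block, a lower quartile covariate and leaving out each array.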

Additional observations from a re-analysis of the deposited data

How the results depend on the processing

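The Tshr difference was 2.24 with the median of its probe sets and 3.81 without dim probe sets, which left 1 of its 15; that filter uses all 6 arrays, so KO signal kept it. Dio2 stood at -0.75 without dim probe sets (4 of 8 left), the 1 of 14 alternatives in which it passed. Its limma adjusted p was 0.036 there and up to 0.46 in the others. As this contrast chose Dio2, nothing is read from that pass. Dio3 stood at -0.22 with the median. Leaving out 1 array gave 1.89 to 1.98 for Tshr, -0.68 to -0.54 for Dio2, -0.13 to 0.04 for Dio1, -0.09 to -0.02 for Dio3, -0.06 to 0.02 for Thra, -0.15 to 0.03 for Thrb and 0.00 to 0.13 for Slc16a10. With 1 array left out, 11 to 13 Tshr probe sets had KO above WT and 7 of Dio2 KO below WT. Groups that lie apart stay apart when an array is removed, so these counts could not fall and do not measure stability.

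The count of called genes, 11, was 5 with the median, 20 with trended and robust moderation and 8 to 12 with 1 array left out. The 72 called probe sets became 125 with that moderation, 32 with the lower quartile covariate and 13 to 37 with 1 array left out, the fewest without KO 2. Pathway genes called stayed at 0 in all alternatives run. Neighbour genes called, 1, were 2 with that moderation, where Gtf2a1 passed, and 0 to 1 with 1 array left out.

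With the replicate block, probe sets called were 7 and neighbours 0 (Ston2, limma adjusted p = 0.11). Each block holds 1 WT and 1 KO array, so it cannot change a difference, and nothing is read from the unchanged 1.94 of Tshr. Same-numbered arrays had correlations of -0.17, 0.07 and 0.18 of their deviations, and 1 of 3 WT arrays was closest to its own number, so the numbers do not show a pairing.

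Directions turned as follows. With the median, Dio1 stood at 0.031, Thra at 0.0099 (0.0010 with the lower quartile covariate), Prkar2b at -0.10, Duoxa2 at 0.16, Pax8 at 0.11 and Sel1l at 0.039; Sel1l stood at 0.0055 when quantile normalized again and 0.00087 with the lower quartile covariate, and Cep128 (4930534B04Rik) at -0.0016 with array weights. With 1 array left out, Pax8 reached 0.0083 without WT 1 (from -0.13), Sel1l ran from -0.032 to 0.042 and Cep128 from -0.017 to 0.040. Dim signal, with Tshr in WT and Dio1, Dio3 and Thrb in both groups below the lower quartiles, limits what can be read of these genes.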
